A study of Mus musculus with 3 samples.

Results

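The genes described here encode the MHC class II molecules of the mouse, the chaperones that load them with peptide, and Ciita, the co-activator that switches them on. The 8 members, taken by gene symbol, were H2-Aa, H2-Ab1, H2-Eb1, H2-DMa, H2-DMb1, H2-DMb2, Cd74 and Ciita, of 55536 genes in the deposited gene tables. The rule uses symbols and no measured value, although it was set with earlier results of these data known. The series measured total RNA bound to chromatin, a fraction that holds many transcripts still attached to their template, in primary macrophages grown from bone marrow of C57BL/6J mice. All cells had been stimulated with Lipid A, the part of lipopolysaccharide that activates TLR4, at 100 ng/ml for 25 min. The 3 libraries, biological replicates 1, 2 and 3, form 1 group, with 1000, 250 and 500 ng of RNA in the labels. No unstimulated sample was analysed here, so every level below is a level in stimulated cells and no induction can be read from it.

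Class II molecules are pairs of an alpha and a beta chain that show peptides from the endosome to CD4+ T cells. In the C57BL/6J strain the classical pair is H2-A, made of H2-Aa and H2-Ab1, whereas the H2-E alpha chain gene is defective and the beta chain gene H2-Eb1 is intact. Cd74, the invariant chain, holds new class II molecules and guides them to the endosome, and the H2-DM pair (H2-DMa with H2-DMb1 or H2-DMb2) exchanges its remnant for other peptides. Ciita binds no DNA itself and acts on a factor complex at a pair of promoter elements called the X and Y boxes. Macrophages are known to hold few class II molecules at rest and to make more of them through Ciita when they meet interferon gamma.

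The promoter elements are shown first because they are the sequence feature that the class II promoters share. RefSeq promoter windows (GRCm38.p6, 250 bases before to 50 after the annotated start) were found for 8 of 12 class II symbols searched, among them 5 of the 8 members. The X box core was searched as CTNNNAAC and the Y box core as GATTGG on both strands, letters that were chosen with these promoters in view. The X letters alone were in 41.1% of all 32851 windows and the Y letters alone in 16.1%. X letters followed on the same strand by Y letters, 30 to 40 bases from start to start, were in 46 windows, or 0.14%. That arrangement was in the windows of H2-Aa, H2-Eb1, H2-DMb1 and H2-DMb2, and in that of H2-Ob, a class II gene outside the member list. On the strand of the gene, it was in neither H2-DMa window and in none of the windows of H2-Oa and H2-Eb2. This says only that these letters are not arranged so on that strand. The count of 46 windows took either strand, whereas the class II windows were read for the arrangement on the strand of the gene alone. The stretches below run 5′ to 3′ on the strand of the gene in mm10 coordinates, with the X and Y letters in capitals. None of them overlaps an annotated exon. The stretch of H2-DMb1 overlaps 1 annotated exon and is not printed.
H2-Aa, chr17:34287861-34287913, minus strand: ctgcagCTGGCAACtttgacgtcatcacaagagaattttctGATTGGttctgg
H2-Eb1, chr17:34305767-34305818, plus strand: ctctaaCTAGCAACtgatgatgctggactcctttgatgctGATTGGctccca
H2-DMb2, chr17:34145117-34145169, plus strand: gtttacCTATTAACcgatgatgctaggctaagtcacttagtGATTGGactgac
H2-Ob, chr17:34238809-34238858, plus strand: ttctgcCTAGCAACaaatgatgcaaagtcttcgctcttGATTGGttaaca

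The X letters started 84 bases before the annotated start in H2-Aa, 94 in H2-Eb1, 126 in H2-DMb2 and 90 in H2-Ob. The spacing from X to Y was 35 bases in H2-Aa and H2-DMb2, 34 in H2-Eb1 and 32 in H2-Ob. In H2-DMb1 the X letters were CTAGTAAC, also 35 bases before the Y letters.

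The libraries held between 13525994 and 19230763 expected counts, and replicate 1 was the shallowest. The 3 genes annotated in the ribosomal DNA locus took 8.46% of the counts in replicate 1 against 27.1% and 23.1% in replicates 2 and 3, so replicate 1 stood apart in what its counts were spent on. The labels give the replicates separate biosamples but 1 donor entry, and do not say whether they came from separate animals. The spread between libraries may then be technical. Levels are given as TPM, a unit that divides counts by gene length and scales them to the same total in each library, rescaled over genes of at least 300 nt. Expected counts are reads that the authors' software assigned to a gene, and reads without molecular identifiers are not independent molecules, so counting intervals cover counting error only.

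All 8 members had counts in every library and a mean level of at least 1 TPM, and 5 had at least 10 TPM. Over all 46615 genes of at least 300 nt, 32.9% reached 1 TPM. Without replicate 1, 7 of the 8 members did, the exception being H2-DMb2. The median level of the members was 12.4 TPM, against 3.32 TPM over the 23783 genes with any count. The levels ran from Cd74 at the top, through H2-DMa, H2-Ab1, H2-Aa and H2-Eb1 between 10.1 and 24.8 TPM, to Ciita, H2-DMb1 and H2-DMb2. In bulk RNA, fewer cells that carry a transcript and less of it per cell cannot be told apart.

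**Figure D1:**
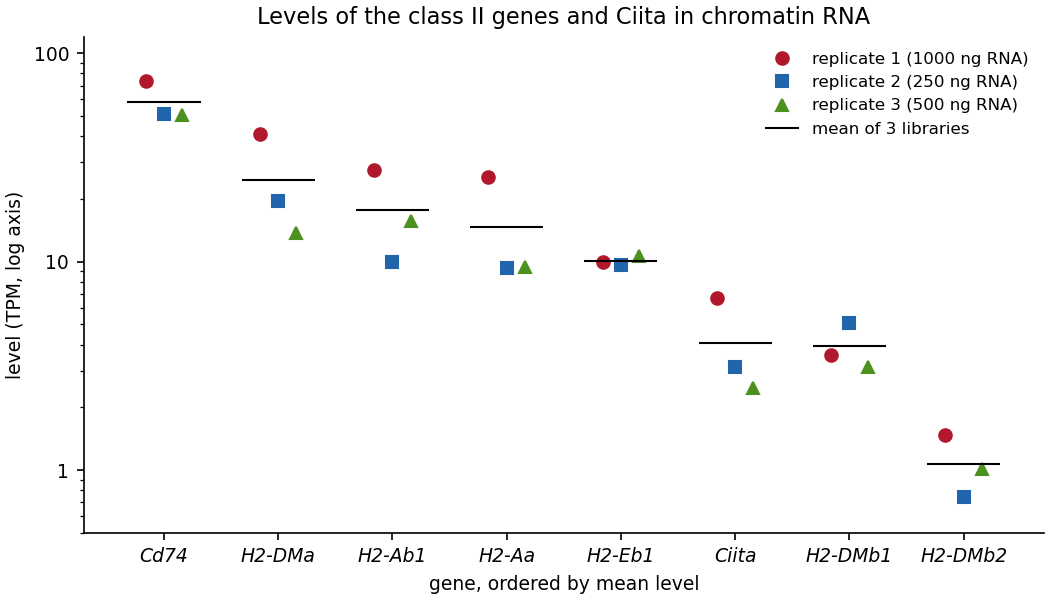
Level of each member in TPM (log axis) in the 3 libraries (points), with the mean (line), ordered by mean. Replicate 1 is the highest library for 6 of the 8 genes, and Cd74 lies above the other members in every library.

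Cd74 (chromosome 18) was at 73.9, 51.3 and 50.6 TPM in replicates 1, 2 and 3, with an average of 58.6 ± 13.3 (SD, n = 3), from 355, 301 and 304 counts. It was the highest member in each library. On average over libraries it stood 2.59-fold above H2-DMa, the next member, beyond the spread of the log2 ratio between libraries (1.37 ± 0.52, SD, n = 3). The kallisto-type table, rescaled the same way, put Cd74 at 109.6 TPM, still the highest.

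Both chains of the H2-A pair had similar levels in TPM when all their annotated transcripts were counted. H2-Aa (chr17:34282744-34287823) was at 25.4, 9.29 and 9.39 TPM, from 321, 140 and 148 counts, with a mean of 14.7 ± 9.30 (SD, n = 3). H2-Ab1 (chr17:34257689-34269419) was at 27.6, 10.01 and 15.6 TPM, from 98, 63 and 77 counts, with a mean of 17.7 ± 8.96 (SD, n = 3). Replicate 1 was the highest library for both, and the ratio of H2-Ab1 to H2-Aa was 1.08, 1.08 and 1.67 in the 3 libraries. Their mean log2 ratio, 0.32 ± 0.36 (SD, n = 3), was within its spread. In the deposited TPM, the protein-coding transcripts of H2-Aa were at 2.39, 1.74 and 1.3 in replicates 1, 2 and 3. Those of H2-Ab1 were at 1.6, 1.17 and 0.47, so H2-Aa was the higher there in every library.

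H2-Eb1 (chr17:34305867-34316674) was the steadiest member, at 10.004, 9.67 and 10.6 TPM from 55, 66 and 73 counts, a mean of 10.1 ± 0.49 (SD, n = 3). H2-Aa was 2.54 times H2-Eb1 in replicate 1 but 0.961 and 0.883 times in replicates 2 and 3, so the order of these 2 genes changed between libraries. H2-Ea-ps, the name the annotation gives to the defective alpha chain gene, had 0 counts in all 3 libraries. At a limit of 3 counts, this allows up to 0.789, 0.529 and 0.553 TPM. Chromatin RNA of these cells thus held H2-Eb1 transcripts, with none counted for its partner in the RSEM-type table at this depth.

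Among the H2-DM genes the alpha chain gene was the highest when all its annotated transcripts were counted. In the deposited TPM, the protein-coding transcripts of H2-DMa were at 0.9, 1.32 and 1.14 in replicates 1, 2 and 3. Those of H2-DMb1 were at 1.17, 1.45 and 0.74, so H2-DMa was the higher there in replicate 3 alone. H2-DMa (chr17:34119541-34139101) was at 41.0, 19.6 and 13.7 TPM, a mean of 24.8 ± 14.3 (SD, n = 3). Its counts, 88.6, 100.2 and 74.7, did not follow that order. The effective length that the authors' software gave the gene, 373, 554 and 626 nt, differed between libraries. CPM values, which adjust each library's total with TMM factors and use no length, were 5.96, 5.62 and 4.05, so the high TPM of replicate 1 was not present on that scale. H2-DMa could not be separated in level from H2-Ab1, with a log2 ratio of 0.45 ± 0.59 (SD, n = 3) that changed sign between libraries.

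The beta chain genes were lower over all transcripts, and H2-DMb1 exceeded its neighbour H2-DMb2 in every library. H2-DMb1 (chr17:34153072-34160230) was at 3.55, 5.08 and 3.12 TPM from 24.7, 44.0 and 22.6 counts, a mean of 3.92 ± 1.03 (SD, n = 3). H2-DMb2 (chr17:34143307-34151555) was at 1.47, 0.744 and 1.01 TPM from 10.3, 8.0 and 10.4 counts, a mean of 1.08 ± 0.37 (SD, n = 3). The mean ratio between them was 3.71-fold, with a log2 ratio of 1.89 ± 0.79 (SD, n = 3). Exact Poisson 95% intervals on the counts ran from 4.80 to 18.4 for H2-DMb2 in replicate 1 and from 16.2 to 36.9 for H2-DMb1. The 2 genes are near copies: their coding sequences, 783 bases each, were identical at 751 positions (95.9%), with a longest shared run of 221 bases. Their counts are therefore uncertain where reads fit both, although the posterior SD of the deposited counts was at most 0.49. The kallisto-type table gave H2-DMb1 59.3, 75.4 and 53.8 counts and H2-DMb2 34.3, 41.7 and 41.3. Rescaled the same way, it put their means at 5.29 and 2.07 TPM, in place of 3.92 and 1.08. On protein-coding transcripts H2-DMb1 had 44.83, 58.85 and 34.83 counts there, below H2-DMb2 in replicate 3 alone. The kallisto-type counts of H2-DMb2 were 4.17 times those of the RSEM-type table on average. This ratio was 2.16 for H2-DMb1, 3.5 for Cd74 and between 1.62 and 2.71 for the other members. Its median was 1.57 over the 9809 genes with at least 50 counts in each library.

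Ciita (chr16:10480059-10528418) was at 6.67, 3.13 and 2.47 TPM from 138, 119 and 92 counts, a mean of 4.09 ± 2.26 (SD, n = 3). Replicate 1 was again the highest. Ciita lay below H2-Eb1 in every library, by 2.71-fold on average (log2 ratio 1.44 ± 0.78, SD, n = 3), and did not differ from H2-DMb1 beyond the spread.

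The genes for H2-O, a pair that restrains H2-DM and is known chiefly from B cells, were close to the counting limit. H2-Oa had 1, 0 and 0 counts and H2-Ob 0, 1 and 2 counts in replicates 1, 2 and 3. H2-Eb2, a further beta chain gene, had 1, 2 and 0 counts. In the RSEM-type table each of the 4 genes beside the members therefore had at most 2 counts in any library, while every member had at least 8. In the kallisto-type table rescaled the same way, 1 of the 4 reached a mean of 1 TPM, against 0 in the RSEM-type table. H2-Ob has X letters before Y letters within the range searched, 32 bases from start to start against 35 in H2-Aa. The level of H2-Ob was 0.0616 ± 0.0715 TPM (SD, n = 3).

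**Figure D2:**
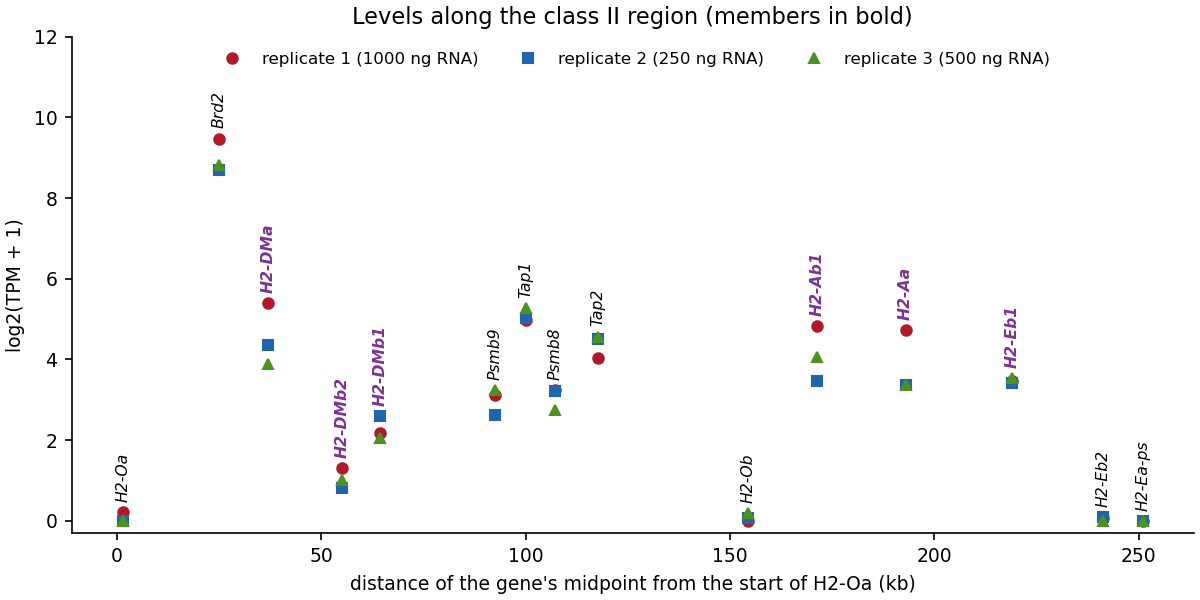
Level as log2(TPM + 1) of each gene from H2-Oa to H2-Ea-ps on chromosome 17 against the distance of its midpoint from the start of H2-Oa in kb, with 1 point per library. The members (bold) stand in 2 runs of 3 genes, with Psmb9, Tap1, Psmb8, Tap2 and H2-Ob between them and Brd2, H2-Oa, H2-Eb2 and H2-Ea-ps outside them.

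The member genes on chromosome 17 thus stood in 2 runs beside genes of very different level. Brd2, a bromodomain protein that binds acetylated histones, was at 525.5 ± 161.7 TPM (SD, n = 3), next to H2-Oa on one side and H2-DMa on the other. Between H2-DMb1 and H2-Ob lie Psmb9, Tap1, Psmb8 and Tap2, which make and import peptides for class I molecules, at 7.10, 33.4, 7.49 and 19.9 TPM. The 13325 nt between H2-Ab1 and H2-Aa and the 18044 nt between H2-Aa and H2-Eb1 hold no other annotated protein-coding gene. Outside this region, Ciita lay between Tvp23a at 2.73 ± 0.43 TPM and Clec16a at 37.6 ± 3.94 TPM (SD, n = 3). Cd74 lay between Rps14, a ribosomal protein gene, at 45.1 ± 9.31 TPM and Tcof1 at 19.5 ± 2.43 TPM (SD, n = 3).

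Overlapping genes limit what the counts of H2-DMa and Ciita stand for, since the sources used here do not say whether reads were counted by strand. H2-DMa shares 3094 nt with Brd2 on the opposite strand, 360 nt of them exonic in both. Transcripts of H2-DMa whose exons touch Brd2 exons held 28.0, 45.5 and 30.7 counts, or 39.4% ± 7.03 (SD, n = 3) of the counts of the gene. The other 6 H2-DMa transcripts held 60.6, 54.8 and 44.0 counts. Ciita shares 25888 nt with Dexi on the opposite strand, 329 nt of them exonic in both. Of the 6007 exonic nt of Ciita-201, 5618 lie inside the Dexi gene, and Dexi had 37, 26 and 23 counts. H2-Eb1 overlaps the antisense gene Gm20513 with no shared exonic base.

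The next question was which annotated transcripts carried the counts. A transcript annotated as retained intron keeps an intron that others of the gene remove. In chromatin RNA, counts on such a transcript cannot be told apart from reads of RNA that is not yet spliced. Shares were taken for the 6 members with at least 50 counts in each library. The median retained-intron share over these members was 35.4%, against a median of 26.2% (quartiles 10.2 and 50.1%) over the 5626 genes with such a transcript and the same count minimum. The members ranged from 3.16% to 81.0%.

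H2-Aa stood at the high end, with 88.4, 71.2 and 83.5% of its counts on retained-intron transcripts, a mean of 81.0% ± 8.88 (SD, n = 3). Of the 5626 genes, 94.8% had a lower share. A single transcript, H2-Aa-203, took these counts, 283.8, 99.6 and 123.6 in replicates 1, 2 and 3. On the CPM scale with TMM factors it was at 19.1, 5.58 and 6.70, whereas the protein-coding transcripts of H2-Aa were at 2.16, 2.04 and 1.08. The excess of H2-Aa in replicate 1 was therefore in H2-Aa-203, while its protein-coding transcripts in replicates 1 and 2 were close to each other. In TPM shares, which divide by transcript length, the retained-intron share of H2-Aa was 51.3% ± 12.4 (SD, n = 3).

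H2-Ab1 had 74.7, 56.5 and 86.6% of its counts on 4 retained-intron transcripts, a mean of 72.6% ± 15.1 (SD, n = 3). For H2-Eb1 the shares were 12.6, 41.8 and 47.6%, a mean of 34.0% ± 18.8 (SD, n = 3). Most of the rest of H2-Eb1 in replicate 1 was on H2-Eb1-205, a transcript annotated for nonsense-mediated decay, with 22.1 counts, and on 2 protein-coding transcripts with 26.0. The RSEM-type table thus put 40.2% of H2-Eb1 in replicate 1 on H2-Eb1-205, and the kallisto-type table put 3.55% there. These shares rest on few reads.

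Cd74 had 23.9, 48.2 and 38.5% on 2 retained-intron transcripts, a mean of 36.9% ± 12.2 (SD, n = 3), with the other counts on protein-coding transcripts. In TPM shares its retained-intron share was 55.9% ± 13.7 (SD, n = 3). Ciita had 25.2, 10.6 and 20.7%, a mean of 18.9% ± 7.45 (SD, n = 3). H2-DMa had the lowest share, 3.16% ± 5.47 (SD, n = 3), with counts of the type in replicate 1 alone in the RSEM-type table and in all 3 libraries (15.5, 3.82 and 5.13) in the kallisto-type table. It had 58.4% ± 4.65 (SD, n = 3) of its RSEM-type counts on non-coding processed transcripts. H2-DMb1 had 0, 3.22 and 2.91 counts on its retained-intron transcript and H2-DMb2 has no such transcript in the annotation.

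**Figure D3:**
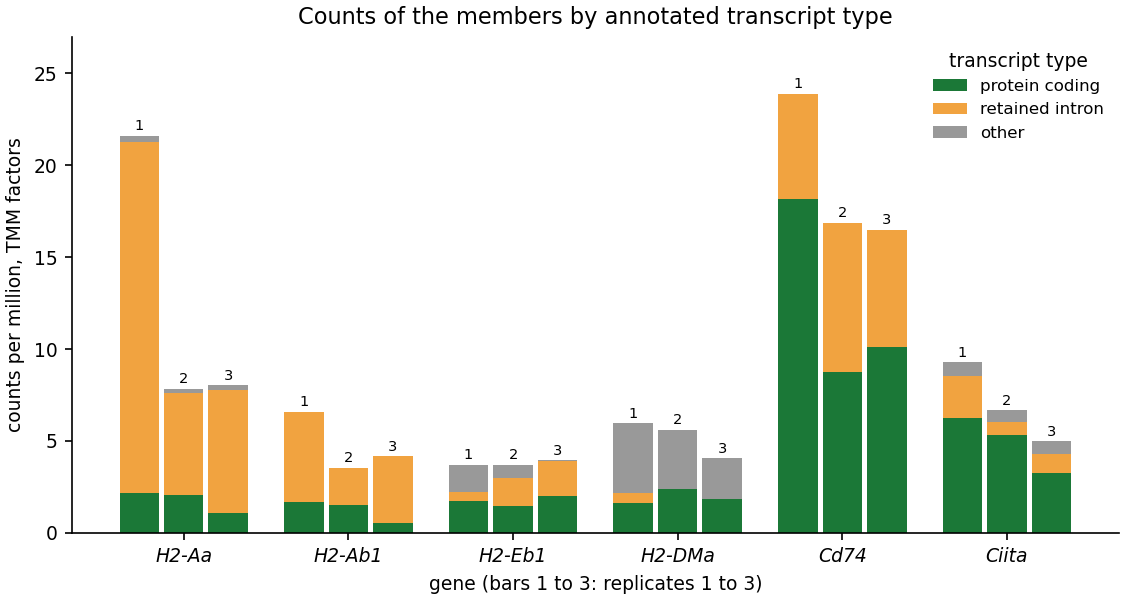
CPM with TMM factors for the 6 members with at least 50 counts in each library, as stacked bars by annotated transcript type, with 1 bar per replicate. In H2-Aa the retained-intron part reaches 19.1 in replicate 1 against 5.58 and 6.70 in replicates 2 and 3.

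Ciita is known to be transcribed from several promoters that are used by different cell types, so its counts were split by annotated transcript start (starts within 100 nt joined). Ciita-201, which starts at 10488279 on chromosome 16, held 80.2, 74.96 and 58.1 counts, or 61.4% ± 2.85 (SD, n = 3). The 3 transcripts that start upstream, from 10480059 to 10480164, held 34.7, 25.7 and 19.1 counts, or 22.5% ± 2.34 (SD, n = 3). Of these, 34.7, 12.7 and 19.1 were on Ciita-207, a retained-intron transcript, whose counts cannot be told apart from RNA not yet spliced. The protein-coding Ciita-205 held the other 13.1 counts in replicate 2. Ciita-202, which starts at 10488178, held 10.4% ± 3.14, and the 3 transcripts that start from 10489746 to 10489783 held 5.64% ± 3.34 (SD, n = 3). The order of the first 2 starts was the same in every library and in the kallisto-type table, where they held 58.1% and 19.1%. Ciita-202 held 17.2% in that table, and in replicate 2 it passed the upstream group, at 18.5% against 18.2%. The counts do not come from the first exons alone, and most exons are shared between transcripts, so these shares are estimates of the authors' software rather than counts of starts.

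The labels record 1 difference between the libraries, the amount of RNA, and each amount has 1 library. Its effect and other differences between replicates cannot be told apart. In an edgeR quasi-likelihood fit of the change per doubling of RNA over 14108 genes, 7.8% of genes were called at an adjusted p under 0.05, 4.71% higher and 3.09% lower with more RNA. Of the members, 7 passed the count filter, H2-DMb2 being too low, and 1 was called. H2-Aa rose by 0.74 ± 0.18 (SE) on the log2 scale per doubling (edgeR adjusted p = 0.00794). DESeq2 and the kallisto-type counts ended that call (adjusted p = 0.0804 and 0.0521) with changes of similar size, 0.75 and 0.64, and the range of adjusted p over all alternatives with a test was 2.97e-06 to 0.0804. The change rested on replicate 1, the library with the most RNA: between replicates 2 and 3 alone it was 0.03, with no test possible.

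The other members tested did not pass the threshold. H2-Ab1 had a change of 0.45 ± 0.23 (SE, edgeR adjusted p = 0.218), Cd74 of 0.25 ± 0.16 (SE, edgeR adjusted p = 0.346) and Ciita of 0.24 ± 0.21 (SE, edgeR adjusted p = 0.509). H2-Eb1 and H2-DMa were at 0.0020 and 0.05 (edgeR adjusted p = 0.997 and 0.923), and H2-DMb1 was at -0.30 (edgeR adjusted p = 0.531). The median change of the 7 members was 0.242, against -0.0125 over all genes tested. In TPM, the level in replicate 1 over the mean of replicates 2 and 3 had a median of 1.92 over the 8 members and 1.23 over all genes at or above 1 TPM (quartiles 0.908 and 1.65). The median coefficient of variation was 42.5% for the members and 25.1% for those genes.

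**Figure D4:**
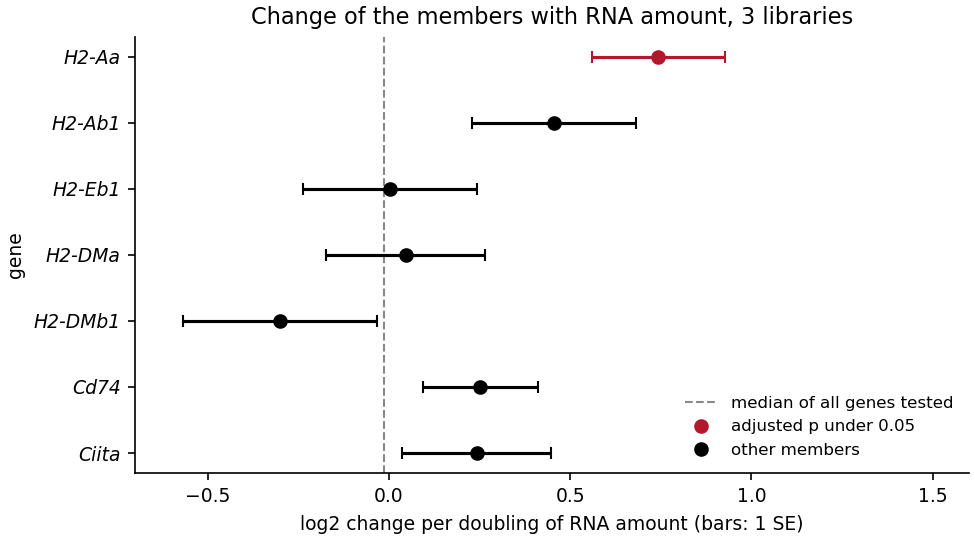
Fitted log2 change per doubling of RNA amount for the 7 members tested, with bars of 1 SE from edgeR and the median of all genes tested as a dashed line. H2-Aa at 0.74 is the only member past the threshold, and H2-DMb1 at -0.30 is the only member below 0.

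The factors that bind class II promoters were measured beside Ciita. All 14 listed promoter factors were at or above 1 TPM, with a median of 28.2 TPM, and 1 rose and 1 fell with RNA amount among 13 tested. Of the RFX complex, which binds the X box, Rfx5 was at 25.0, 18.4 and 19.3 TPM, Rfxank at 7.61, 10.7 and 8.94 TPM and Rfxap at 2.09, 2.97 and 7.91 TPM. Rfxap was the lowest factor of the list and rested on 4, 19 and 24 counts. Nfya, the NF-Y subunit that contacts the Y box, was the highest at 241.7, 173.7 and 122.1 TPM, followed by the acetyltransferase Ep300 at 143.8 ± 4.17 TPM and the X box factor Creb1 at 79.6 ± 61.5 TPM (SD, n = 3). Creb1 rose by 0.60 and the acetyltransferase Kat2a fell by 0.50 on the log2 scale per doubling of RNA. Ciita itself, at 4.09 TPM, was below all 14 of these factors in mean level, although Rfxap was lower than Ciita in replicates 1 and 2. DESeq2 called 1 gene of this list.

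Of 16 genes known to act on Ciita, 13 were at or above 1 TPM, with a median of 33.4 TPM. Irf1, an interferon-induced activator of the Ciita promoter, was the highest at 2827, 1060 and 1583 TPM and rose by 0.63 on the log2 scale per doubling (edgeR adjusted p = 0.00219). Irf2, a relative of Irf1, was at 254.4 ± 51.6 TPM (SD, n = 3). Spi1, the myeloid factor PU.1, was at 111.3, 44.6 and 49.4 TPM. Prdm1, a repressor of Ciita in plasma cells, rose by 0.48 on the log2 scale per doubling at 25.4 ± 12.6 TPM (SD, n = 3). Those 2 called genes were among 14 tested, and DESeq2 called 1. The interferon gamma gene Ifng had 0 counts in each library, and Irf4 and Socs1 were the other genes under 1 TPM.

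All 14 genes of class II antigen processing were at or above 1 TPM, with a median of 84.3 TPM. Ctsb, Ctsd and Lgmn, endosomal proteases, were the highest at 919.6 ± 146.8, 464.8 ± 119.2 and 389.8 ± 40.2 TPM (SD, n = 3). Ctss, which cuts the invariant chain, was at 134.9, 94.0 and 115.9 TPM, above Cd74 in every library of the RSEM-type table. The rescaled kallisto-type table put Cd74 higher, at 109.6 TPM, and the 2 genes were not compared there. Ifi30, a reductase that opens disulphide bonds of antigens, was the lowest at 2.45, 2.51 and 2.48 TPM. Of the 14 genes tested, March1, a ubiquitin ligase that removes class II molecules from the surface, rose by 0.54 and Ctsd fell by 0.40 on the log2 scale per doubling, calls that DESeq2 did not make. March1 was at 40.8, 15.1 and 19.1 TPM.

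The 16 genes of the class I pathway were all at or above 1 TPM, with a median of 38.6 TPM, and edgeR and DESeq2 called 0 of the 16 tested, with 2 at an unadjusted edgeR p under 0.05. H2-D1 and H2-K1, the classical class I heavy chains of this strain, were at 1505 ± 264.9 and 1387 ± 344.3 TPM (SD, n = 3), and H2-K1 was 61.0, 101.0 and 94.2 times H2-Ab1 in the 3 libraries. Nlrc5, the relative of Ciita that acts on class I genes, was the third highest at 287.0, 170.4 and 240.0 TPM, or 43.0, 54.4 and 97.2 times Ciita. B2m, the light chain of class I molecules, was at 122.0, 60.5 and 62.5 TPM, between 1.18 and 1.65 times Cd74 in the RSEM-type table. Tapbpl was the lowest at 3.16 ± 0.38 TPM (SD, n = 3).

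**Figure D5:**
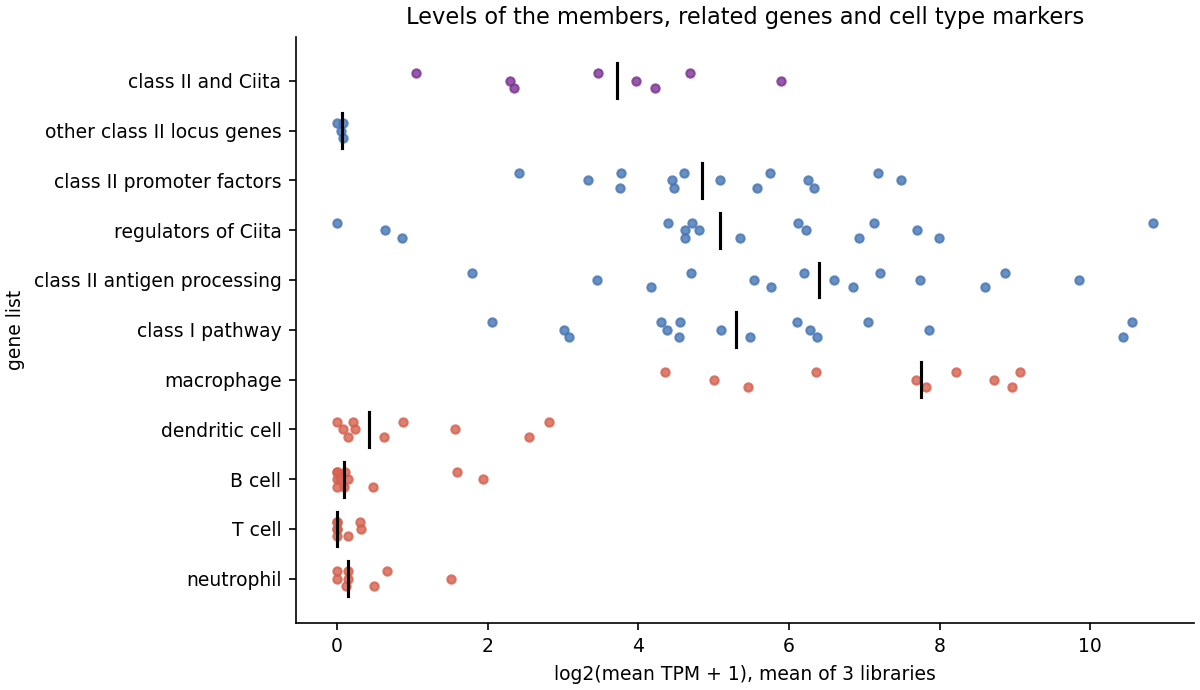
Mean level over 3 libraries as log2(mean TPM + 1) of each gene in the lists (points; members in purple, related genes in blue, cell type markers in red), with the median of each list as a black line. The median of the members lies below that of the macrophage markers and above those of the dendritic, B, T and neutrophil markers.

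Some other cells of marrow, such as dendritic cells and B cells, express class II genes strongly. Markers of these, and of T cells and neutrophils, were therefore read beside the members. All 10 macrophage markers were at or above 1 TPM, with a median of 216 TPM and Csf1r, Cd14 and Lyz2 the highest at 534.7, 495.8 and 422.2 TPM. Of 10 dendritic cell markers 3 were, namely Batf3 at 6.07, Ccr9 at 4.85 and Zbtb46 at 1.95 TPM, against 7 in the kallisto-type table rescaled the same way. Flt3 had 2, 2 and 5 counts, Xcr1 1, 3 and 2, and Cd209a 0 in each library. The summed level of the dendritic markers was 17.8, 14.2 and 12.3 TPM in replicates 1, 2 and 3.

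Of 11 B cell markers, Ighm and Cr2 were at or above 1 TPM, while Pax5, Blk and Ighd had 0 counts in each library. In the kallisto-type table rescaled the same way 5 of the 11 reached 1 TPM, and in the deposited TPM 0 did. The limit of 3 counts allows Pax5 up to 0.480, 0.313 and 0.329 TPM. The summed level of the B cell markers was 10.1 TPM in replicate 1 and 2.65 and 3.78 TPM in replicates 2 and 3. The summed macrophage markers, at 2736, 1988 and 2342 TPM, were also highest in replicate 1. So were the dendritic markers and 6 of the 8 members, but the size of the excess differed. The level in replicate 1 over the mean of replicates 2 and 3 was 3.43 for Ighm and 3.75 for Cr2. The median of this ratio was 1.92 over the members and 1.23 over all genes at or above 1 TPM. The cause was not tested. Ighm was at 5.35, 1.44 and 1.68 TPM, and Cr2, at 3.94, 0.839 and 1.26 TPM, rose by 0.84 on the log2 scale per doubling of RNA in edgeR and was not called by DESeq2. Of 8 T cell markers, 0 reached 1 TPM in the RSEM-type table, where 5 had no count, and 4 did in the kallisto-type table rescaled the same way. Ngp, at 1.87 ± 0.88 TPM (SD, n = 3), was the 1 of 8 neutrophil markers at or above 1 TPM, against 2 in the rescaled kallisto-type table and 0 in the deposited TPM. The part of other cells in the class II levels was not tested beyond these values.

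Genes whose pattern over the 3 libraries was most like the mean of the members were taken from the 8181 other genes of at least 10 TPM, by Euclidean distance between centred log2(TPM + 1) profiles. The 5 nearest were Hook3, Hspa4l, Hnrnph2, Gopc and G3bp1, at distances of 0.00221 to 0.0128. Hook3, an adaptor of microtubule motors, was at 113.2, 71.3 and 68.9 TPM. The member nearest to the mean was Cd74 at 0.131, and 402 of the genes lay nearer than it. The members were thus no closer to their own mean than many other genes were: 60.4% of the candidates lay nearer than the median member, at 0.551. With 3 libraries, 1 of them set apart, such a profile holds little more than the level of replicate 1.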

How the data were processed

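Total RNA of the chromatin fraction was sequenced after ribosomal depletion, per the labels. The authors deposited RSEM-type gene and transcript tables with expected counts, TPM and posterior standard deviations of the counts (other values), and a kallisto-type transcript table with estimated counts and TPM. The file headers name mm10 and annotation M21. The aligner, the tool versions and the strand setting: not given in the sources used here.

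From the deposited expected counts, TPM was recomputed over the 46615 genes whose mean length reached 300 nt, since shorter genes, tRNA and spike-in entries held 61.7 to 67.1% of the deposited TPM. Neighbours in the order of levels were said to differ when the log2 ratio kept its sign in all 3 libraries and its mean exceeded its SD. Rounded counts were fitted against log2 RNA amount with edgeR 4.0.16 in R 4.3.3 (filterByExpr with the libraries as 1 group, TMM factors, quasi-likelihood F test, Benjamini-Hochberg over all 14108 genes), with SE derived from the F statistic. The fit has 1 residual degree of freedom, and its dispersion draws on all genes tested. The p-values therefore do not measure the spread of a gene's own libraries alone, and they cover no spread beyond these libraries. DESeq2 1.42.0, other scalings, filters, tables and left-out libraries were alternatives. Python 3.11.15, pandas 2.3.3 and Biopython 1.88 did the rest.

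Members and lists (6 of genes, 5 of markers) were chosen with earlier results of these data known. Named genes were all members, the other class II genes, 11 class II or interferon pathway genes, the 3 highest, the lowest and up to 3 called genes of each list, markers of other cells at 1 TPM or more, flanking genes and the 5 genes most alike in pattern. A few genes that this rule names are not reported here. Defining markers at 0 to 5 counts, overlapping genes and genes of the class II region were named after their values were seen.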

Additional observations from a re-analysis of the deposited data

How the results depend on the processing

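No paired analysis was possible because the series has only 1 group. The median level of the members, 12.4 TPM, was 4.42 TPM in the deposited TPM, 7.35 TPM in the kallisto-type TPM as deposited and 5.08 CPM without gene length, and ran from 9.75 to 13.9 TPM when each replicate was left out. The deposited scales are lower by construction, since short genes hold most of their total. Cd74 stayed the highest and H2-DMb2 the lowest member under the 7 other ways of setting levels, while Ciita and H2-DMb1, or without gene length further members, exchanged places. H2-Aa was the 1 member called with RNA amount, and 0 members were called with the kallisto-type counts in edgeR and with DESeq2 (3 and 1 at an unadjusted p under 0.05); the cause was not tested. Over all genes 1101 were called, against 661 with the count filter set by the design, 503 with the kallisto-type counts, 3040 with amount in ng and 368 with DESeq2. The change of H2-Eb1 turned to -0.0011 with the count filter set by the design, -0.0060 without a filter and -0.0089 with amount in ng, and that of H2-DMa to -0.039 with the kallisto-type counts (all near 0), while the kallisto-type counts gave 0.28 for H2-Eb1 and -0.013 for H2-DMb1. Without TMM factors 1215 of 1370 called genes were higher with more RNA, against 665 of 1101, and the median gene moved to 0.12. Leaving out each replicate gave changes of 0.03 to 1.43 for H2-Aa, 0.24 to 0.66 for H2-Ab1, -0.10 to 0.10 for H2-Eb1, -0.46 to 0.56 for H2-DMa, -0.98 to 0.43 for H2-DMb1, -0.033 to 0.54 for Cd74 and -0.42 to 0.90 for Ciita, each from 2 libraries and with no test. The median retained-intron share, 35.4%, was 49.6% in TPM shares and 30.6 to 44.0% with a replicate left out. The share of the Ciita-201 start, 61.4%, was 58.1% in the kallisto-type counts and 71.9% with starts joined within 1000 nt, and 60.6 to 63.1% with a replicate left out. At this depth H2-DMb2 and the class II genes outside the member list rest on few counts, and the table used also changes the counts of H2-DMb2.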
